A study of Mus musculus with 8 samples.

Results

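The genes described here are 8 of the semaphorins, Sema6a, Sema6d, Sema3a, Sema3c, Sema3e, Sema3g, Sema5a and Sema7a, out of the 33027 genes in a single-cell RNA sequencing table of mouse lung. They were chosen on measured values: the level of Sema6d and Sema6a in general capillary endothelial cells (gCap cells, labelled EC_capillary_B by the authors) was higher in mice exposed to cigarette smoke (CS) than in mice kept in room air (RA). The gCap values of the 8 genes are therefore given below as a description, with no test. All 8 genes were found by symbol.

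The study compared 4 CS mice with 4 RA mice. All 8 mice were C57BL/6 animals carrying the Sftpc-CreERT2 and mTmG alleles, in which a tamoxifen-inducible Cre recombinase driven by the promoter of the alveolar type II (AT2) cell gene Sftpc switches a membrane reporter from tomato to green fluorescence, and all 8 received tamoxifen at 8 to 10 weeks of age. Littermates were assigned 2 weeks later to 3R4F cigarette smoke for 6 hours a day, 5 days a week, or to room air, for 10 months. Dissociated lung cells were separated by CD45, the common leukocyte antigen, and mixed at 10% CD45+ to 90% CD45- cells, so the shares of cell types in the libraries follow this mixing. The 4 sequencing lanes each held 1 CS and 1 RA mouse. After 1025 multiplets and 7 cells labelled as cell cycle were left out, 40074 cells of 32 annotated types remained. A CS mouse had between 3317 and 6153 cells and 33145096 to 48490570 counted transcripts (unique molecular identifiers, UMIs), and an RA mouse 2553 to 6371 cells and 31094695 to 52753531. In 4 libraries, all CS, the sex-linked transcripts went against the labelled sex. Each group held 2 mice with Xist and 2 with Ddx3y, and sex was not used. The exposure labels could not be checked in this way and were used as given. Of 39884 barcode sequences, 190 occurred in more than 1 library.

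Semaphorins are a family of secreted, membrane-spanning and lipid-anchored proteins first known for guiding axons, and many also act on blood vessels, epithelium and immune cells. The class 3 members (Sema3a, Sema3c, Sema3e, Sema3g) are secreted and mostly bind neuropilins that pair with plexins, with Sema3e binding plexin D1 directly. Sema6a and Sema6d span the membrane and bind class A plexins, Sema5a spans the membrane and carries thrombospondin repeats, and Sema7a is held by a lipid anchor and acts through plexin C1 and integrins. In the lung, gCap cells and aerocytes (labelled EC_capillary_A) are the capillary endothelial types of the alveolus, and alveolar type I (AT1) cells are the thin epithelial cells that face them.

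RefSeq promoter windows, from 250 bases before to 50 after a start site on GRCm38.p6, were found for 7 of the 8 genes. The windows of Sema6d, Sema3e and Sema3c are shown because these genes had the CS and RA differences that passed the test outside gCap cells. Capitals mark CACGTG (the E-box palindrome), TGACTCA (AP-1), CCACCC (the KLF type), GGGCGG (the GC box) and TATAAA on either strand, with overlapping matches joined.
Sema6d, chr2:124089719-124090018, plus strand: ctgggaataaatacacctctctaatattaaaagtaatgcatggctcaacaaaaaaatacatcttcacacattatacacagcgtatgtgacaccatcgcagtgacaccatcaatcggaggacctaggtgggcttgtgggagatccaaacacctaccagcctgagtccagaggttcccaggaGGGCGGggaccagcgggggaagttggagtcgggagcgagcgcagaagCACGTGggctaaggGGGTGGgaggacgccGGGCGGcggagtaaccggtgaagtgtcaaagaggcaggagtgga
Sema3e, chr5:14025026-14025325, plus strand: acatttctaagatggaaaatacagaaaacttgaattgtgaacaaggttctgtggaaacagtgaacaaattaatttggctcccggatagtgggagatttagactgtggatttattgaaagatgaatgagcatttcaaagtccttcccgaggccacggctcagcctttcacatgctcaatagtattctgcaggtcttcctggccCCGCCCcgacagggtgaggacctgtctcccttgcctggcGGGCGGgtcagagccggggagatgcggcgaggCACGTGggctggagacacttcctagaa
Sema3c, chr5:17574566-17574865, plus strand: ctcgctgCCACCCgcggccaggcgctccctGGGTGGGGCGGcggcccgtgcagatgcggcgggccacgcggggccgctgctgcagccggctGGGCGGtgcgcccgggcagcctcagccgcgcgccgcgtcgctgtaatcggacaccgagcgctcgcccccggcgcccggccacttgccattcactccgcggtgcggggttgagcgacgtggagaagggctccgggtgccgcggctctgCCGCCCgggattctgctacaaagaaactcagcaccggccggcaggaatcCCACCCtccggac
The Sema6d and Sema3e windows each held 1 CACGTG, which 7.15% of the 32851 windows of this length held. None of the other windows of the 7 genes held it, and Sema6a had no window. The GC box occurred 2 times in the Sema6d window, 2 times in that of Sema3e and 3 times in that of Sema3c, and in 35.7% of all windows. The KLF type letters were found 1 time for Sema6d, 3 times for Sema3c and not for Sema3e, against 31.5% of all windows. TGACTCA (5.20% of all windows) and TATAAA (13.6%) were in none of the windows of the 7 genes. Sema6d has a second RefSeq start at chr2:124653331-124653630, whose window held none of these letters. These matches are descriptions of letters, not of binding.

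The genes differ in length. On GRCm38 in the GENCODE annotation, Sema6d (ENSMUSG00000027200.17) spans 578 kb on chromosome 2, from 124089969 to 124667770. Sema6a (ENSMUSG00000019647.16) spans 133 kb on the minus strand of chromosome 18, from 47235598 to 47368870. Sema3a, Sema3e and Sema3c lie on chromosome 5 and span 477, 231 and 156 kb, Sema5a spans 452 kb on chromosome 15, Sema7a 22.8 kb on chromosome 9 and Sema3g 12.5 kb on chromosome 14. The deposited values add unspliced to spliced transcripts, so reads from introns count towards a gene, and the span is given beside the results for that reason.

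Levels below are transcripts per 10,000 UMIs, averaged over the cells of a type in each mouse, then given as mean ± SD over mice. They are not divided by length and are compared for 1 gene between cell types, not between genes. The order covers the 22 types with at least 20 cells in at least 3 mice of each group, and a neighbour counts as distinct where the gap in means exceeded the larger SD. Among the 22 types compared, 6 of the 8 genes were highest in an endothelial type and Sema3a and Sema3e in AT1 cells.

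Sema6a was highest in aerocytes, at 13.7 ± 3.46 (n = 8), and in lymphatic endothelium at 11.99 ± 2.42, which did not differ beyond their spread (aerocytes above in 6 of 8 mice). It was 7.41 ± 1.73 in gCap cells, below lymphatic endothelium in 8 of 8 mice. Venous (4.53 ± 1.02) and arterial endothelium (4.37 ± 0.882) followed and did not differ beyond their spread, then mesothelium (2.44 ± 0.803, n = 7). Sema6d was highest in gCap cells at 4.23 ± 1.62, but venous endothelium (3.84 ± 1.30) did not differ from them beyond the spread, with gCap cells above in 5 of 8 mice. These levels pool CS and RA mice, so the gCap mean and SD hold the contrast that chose the gene. In RA mice alone Sema6d was 2.80 ± 0.610 in gCap cells and 2.89 ± 0.921 in venous endothelium. Over all 8 mice again, arterial endothelium had 2.58 ± 0.697 and aerocytes 1.27 ± 0.528, a gap seen in 8 of 8 mice. The Sema6 genes were thus both endothelial, and aerocytes, at the top for Sema6a, came after the gCap, venous and arterial cells for Sema6d.

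Sema3c was highest in gCap cells at 22.4 ± 5.39, 2.18 times venous endothelium (10.3 ± 3.12) and above it in 8 of 8 mice. Mesothelium followed at 6.40 ± 1.58 and aerocytes at 2.43 ± 0.731. Sema3g had the narrowest range of types: 4.90 ± 0.535 in arterial endothelium and 3.95 ± 0.507 in gCap cells, with arterial above in 8 of 8 mice, while venous endothelium, the next, had 0.211 ± 0.141. Sema7a was highest in aerocytes at 4.61 ± 0.720, 3.64 times gCap cells (1.27 ± 0.315) and above them in 8 of 8 mice. Sema7a in gCap cells and lymphatic endothelium (0.884 ± 0.430) did not differ beyond their spread, though gCap cells were above in 7 of 8 mice.

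Sema3e and Sema3a were led by epithelium. Sema3e was highest in AT1 cells at 13.9 ± 3.34, ahead of ciliated cells at 6.87 ± 0.659 in 8 of 8 mice, and of club cells at 2.12 ± 0.374. Sema3a was highest in AT1 cells at 7.10 ± 1.51, followed by lymphatic endothelium at 4.74 ± 1.45, with AT1 cells above in 7 of 8 mice. Club cells followed for Sema3a at 0.625 ± 0.174. Sema5a was highest in aerocytes at 3.86 ± 0.769, above alveolar fibroblasts (2.11 ± 0.525) in 8 of 8 mice. Mesothelium (1.88 ± 0.561, n = 7) did not differ beyond the spread from alveolar fibroblasts, its neighbour above, or from peribronchial fibroblasts (1.36 ± 0.705, n = 6), its neighbour below.

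**Figure D1:**
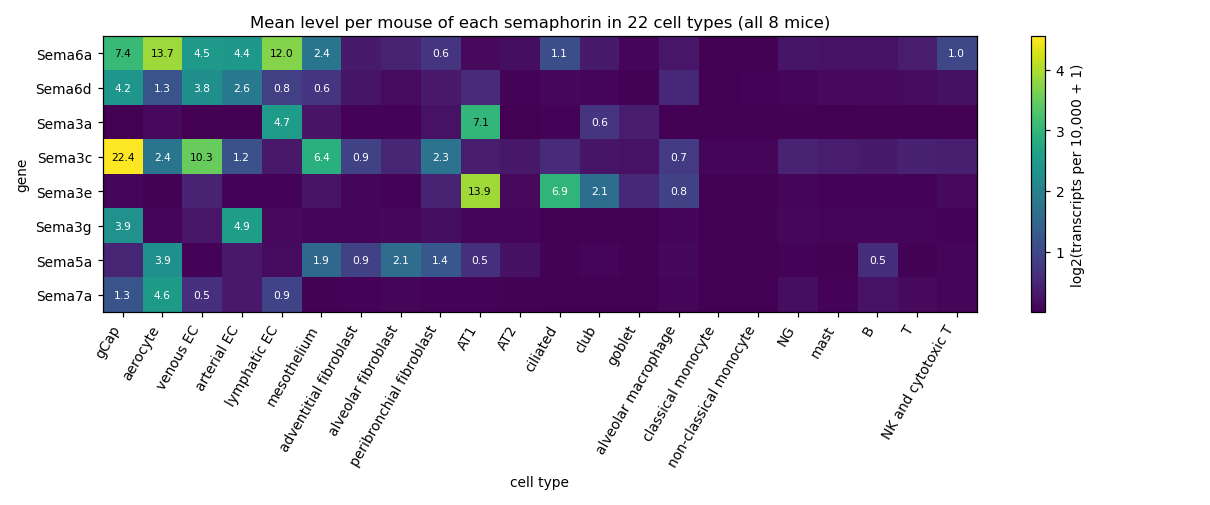
Mean level over mice of each semaphorin (rows) in 22 cell types (columns), coloured on the log2(transcripts per 10,000 + 1) scale, with means of 0.5 or more printed. Sema6a, Sema6d, Sema3c, Sema3g and Sema7a lie mainly in the endothelial columns on the left, and Sema3a and Sema3e peak in AT1 cells at 7.10 and 13.9.

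Some types had too few cells for the comparison. Sema3e stood at 8.68 ± 4.11 over 84 pulmonary neuroendocrine cells from 8 mice, and Sema5a at 4.39 ± 1.63 in smooth muscle cells of the 3 mice with at least 20. Cells labelled erythrocytes (6 to 22 a mouse) held Sema3c at 12.6 ± 3.95 in 3 mice. They also held Gpihbp1, a gCap marker, at a mean of 4.71 against 12.3 in gCap cells, beside the haemoglobin gene Hbb-bs at 1532. Their semaphorin values were not used further.

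The genes most like each semaphorin over the 22 types, by Pearson's r of log2(mean + 1) in RA mice among 14916 genes found in at least 10% of cells of a type, are a description of shared cell types. Sema6a was closest to Zbtb46, Robo4 and Ppm1f (r = 0.95 for each). Sema6d was closest to Sptbn5, Pde3a and Cyyr1 (r = 0.95, 0.95 and 0.94), and Sema3c to Papln, Cdr2 and Irgm2 (r = 0.96, 0.94 and 0.90). For Sema3g these were Grp (r = 0.997), Grik2.1 (0.99) and Hey1 (0.98), and for Sema7a Ackr2 (0.98), Piezo2 (0.98) and A330009N23Rik (0.97). Sema3e was closest to Mtus2, Epb41l4b and Mab21l4 (r = 0.97, 0.96 and 0.96), Sema3a to Gm43719, Susd4 and Wipf3 (0.96, 0.90 and 0.89), and Sema5a to Adamtsl5, Tbx2 and Irs1 (0.93, 0.91 and 0.90). The points share libraries and depth.

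In gCap cells, Sema6d, which chose the genes together with Sema6a, stood at 4.90, 6.24, 5.91 and 5.58 in CS mice 1 to 4 and at 1.92, 2.91, 3.33 and 3.03 in RA mice 1 to 4. Every CS mouse lay above every RA mouse. The means were 5.66 ± 0.570 and 2.80 ± 0.610 (SD, n = 4 each), a ratio of 2.02 and a log2(level + 1) difference of 0.82. Sema6a stood at 8.68, 7.27, 8.89 and 9.29 in CS mice and at 3.92, 6.34, 7.85 and 7.03 in RA mice. CS mouse 2 lay below RA mouse 3, so the groups overlapped, and RA mouse 1 was the lowest of all. The means were 8.53 ± 0.880 and 6.29 ± 1.69, a log2 difference of 0.42. CS was the higher in 4 of 4 lanes for Sema6d and in 3 of 4 for Sema6a.

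Sema3c, a secreted ligand of neuropilins, stood at 29.9, 26.3, 25.8 and 25.4 in the gCap cells of CS mice and at 13.6, 17.4, 19.9 and 21.2 in those of RA mice. The groups did not overlap, and the log2 difference was 0.57. Sema3g, a ligand of neuropilin 2, stood at 4.44, 4.16, 4.13 and 4.67 in CS mice and at 3.09, 3.57, 3.72 and 3.80 in RA mice. Its groups did not overlap either, with a smaller log2 difference of 0.24. Sema7a overlapped, at 0.973 to 1.52 in CS and 1.07 to 1.88 in RA mice. Sema5a stood at 1.87 in RA mouse 1 and at 0.0769 to 0.218 in the other RA mice, against 0.0871 to 0.406 in CS mice. It was found in 1.91% to 9.88% of a CS mouse's gCap cells and 2.23% to 23.4% of an RA mouse's. Sema5a thus reached 10% of gCap cells, pooled over mice, in the RA group only. Sema3a (0.00337 to 0.0242) and Sema3e (0.0329 to 0.102) were found in under 10% of gCap cells of both groups. Of all 6556 genes found in at least 10% of gCap cells, 13.6% had CS values all above the RA values. The contrast itself chose the genes, and nothing is read from their count.

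**Figure D2:**
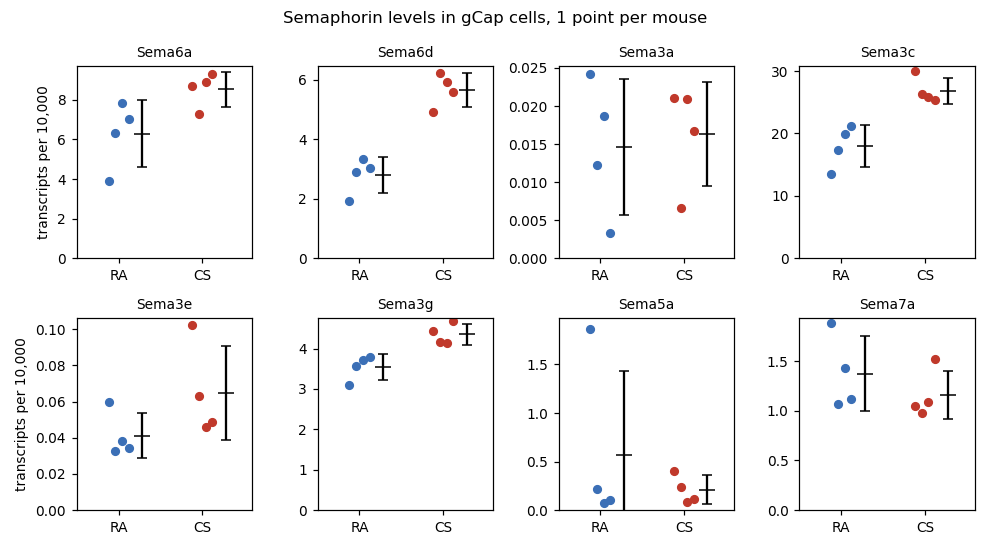
Level in gCap cells of each mouse (points) in transcripts per 10,000 for the 8 semaphorins, with the mean and SD of each group beside the points; each panel has its own axis from 0. Sema6d, Sema3c and Sema3g show no overlap of RA and CS, Sema6a overlaps, and RA mouse 1 stands at 1.87 for Sema5a.

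The share of gCap cells with at least 1 Sema6d UMI was 71.9% ± 3.47 in CS and 53.0% ± 12.1 in RA mice, and thinned to 2000 UMIs a cell it was 55.3% ± 3.30 and 34.6% ± 5.81. Thinning left out 387 shallower CS and 509 shallower RA cells. For Sema6a the shares were 85.5% ± 3.37 and 73.7% ± 15.2, and after thinning 70.5% ± 4.31 and 57.8% ± 11.6. Classical monocytes, a leukocyte that should lack endothelial genes, held a Sema6d UMI in 1.83% of CS and 0.753% of RA cells and a Sema6a UMI in 2.58% and 1.73%, at median depths of 6911 and 7666 UMIs against 3938 and 3713 in gCap cells. Sema3a was found in 0.684% of CS and 0.652% of RA gCap cells and in 1.53% and 1.02% of the monocytes, so its gCap share is read as background. Sema3e was in 2.09% and 1.77% of gCap cells, and in 1.79% and 0.294% of monocytes.

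The authors divided gCap cells among clusters 0, 1 and 9. Sema6d was higher in every CS mouse than in every RA mouse within each of the clusters, with means of 6.45 ± 0.805 and 3.12 ± 0.676 in cluster 0, 4.67 ± 0.813 and 2.69 ± 0.668 in cluster 1, and 4.89 ± 0.591 and 2.53 ± 0.617 in cluster 9. For Sema6a the groups overlapped in all 3 clusters, with log2 differences of 0.18, 0.29 and 0.24 against 0.42 over all gCap cells. Sema6a stood lower in cluster 1 (5.16 ± 0.587 in CS, 4.13 ± 1.17 in RA) than in cluster 0 (10.3 ± 0.531 and 9.08 ± 0.988). Cluster 1 held 18.4% to 41.4% of a CS mouse's gCap cells and 31.8% to 70.3% of an RA mouse's, the highest being RA mouse 1. Without RA mouse 1, the log2 difference of Sema6a was 0.24 and that of Sema6d was 0.70.

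Several other values moved with exposure in gCap cells. The summed level of 5 gCap markers was 33.7 to 40.2 in CS and 43.1 to 46.5 in RA mice, with all 5 detected. A list of 10 genes that respond to tissue digestion summed to 54.3 to 83.8 in CS and 107 to 142 in RA mice. Markers of other cells overlapped between the groups: 5 aerocyte markers summed to 1.68 to 2.61 in CS and 2.43 to 2.68 in RA mice, 5 arterial markers to 5.09 to 5.71 and 2.32 to 5.25, 4 venous markers to 4.03 to 6.94 and 3.87 to 9.19, 4 lymphatic markers to 0.812 to 0.934 and 0.761 to 0.875, and 5 leukocyte markers to 0.310 to 0.487 and 0.262 to 1.17. Median depth was 3482 to 4925 UMIs a gCap cell in CS and 3024 to 5226 in RA mice. The part of these values in the semaphorin differences was not tested.

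Genomic span also moved with exposure. In gCap cells the median log2 difference, CS minus RA, was -0.08 over the 1310 genes that span up to 10 kb, -0.03 from 10 to 30 kb, 0.05 from 30 to 100 kb, 0.12 from 100 to 200 kb and 0.17 over the 416 genes above 200 kb, of which 86.1% were higher in CS. Sema6d (578 kb, 0.82), Sema3c (156 kb, 0.57) and Sema6a (133 kb, 0.42) lay above the medians of their classes, as did Sema3g (12.5 kb, 0.24), while Sema5a (452 kb, -0.24) and Sema7a (22.8 kb, -0.13) lay below. Both of the latter rested on RA mouse 1. Without it, an alternative added after seeing the data, the log2 difference of Sema5a was 0.09, beside a median of 0.13 over its class, and that of Sema7a was -0.03, beside -0.03. Without CS mouse 4 that of Sema7a was -0.21. With a smooth curve over span subtracted in every mouse, a correction added after seeing the data, the log2 difference in gCap cells was 0.60 for Sema6d and 0.29 for Sema6a.

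**Figure D3:**
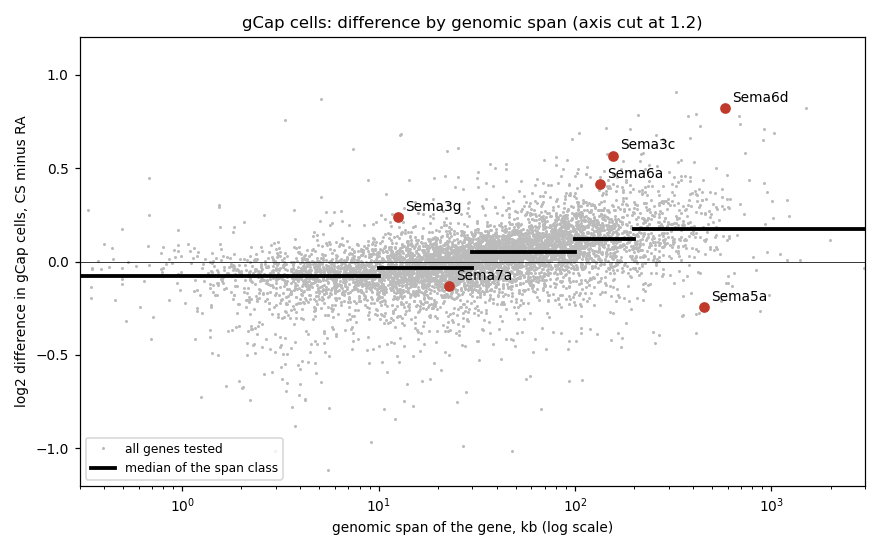
Log2 difference, CS minus RA, in gCap cells for each gene tested (grey points) against its genomic span in kb on a log axis, with black lines at the median of each span class. The 6 semaphorins found in at least 10% of the pooled gCap cells of either group are in red (Sema5a in RA only). The medians climb from -0.08 to 0.17 with span, and Sema6d at 0.82 and Sema3c at 0.57 lie above them.

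Outside gCap cells, the genes were tested in 21 types. Of the 168 pairs of gene and type, 62 passed the filter of 10% of cells in either group and 106 did not, among them 20 types for Sema3g and 10 for Sema6d. The 62 include Sema3c in alveolar macrophages, which passed this filter through the CS group only. Of the 62, 3 passed an adjusted p of 0.05 (limma, Benjamini-Hochberg over all genes of the type), all higher in CS: Sema6d in aerocytes, Sema3e in AT1 cells and Sema3c in ciliated cells. The background was 0.873% of 165706 tests of all genes in these types. At an unadjusted p of 0.05, 25 of the 62 passed, against 14.4% of all tests. The CS values lay wholly above the RA values in 15 of the 62 and wholly below in none, against 5.71% of all tests for the former. The median log2 difference of the 62 was 0.18, beside 0.01 over all tests and 0.07 over tests of genes that span more than 100 kb. Of the 62, 52 were higher in CS, beside 54.3% of all tests and 73.2% of tests of these long genes. The shares called, at an unadjusted p of 0.05 and without overlap were not counted for long genes alone. The 62 tests use the same mice whose gCap values chose the genes, so the counts are not independent of that choice. Fewer transcripts per cell and a different mix of cells within a type cannot be told apart in these averages.

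**Figure D4:**
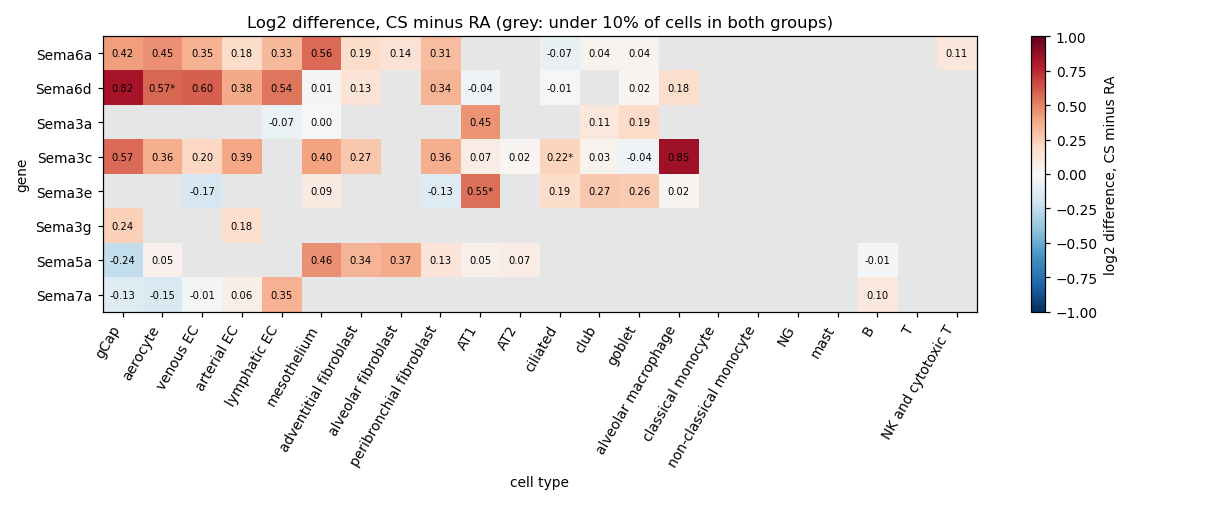
Log2 difference of log2(level + 1), CS minus RA, for each semaphorin (rows) in 22 cell types (columns), with grey where under 10% of cells of both groups held the gene and an asterisk at the adjusted p of 0.05 (limma; gCap untested). Most coloured squares are red, the asterisks being Sema6d in aerocytes (0.57), Sema3e in AT1 cells (0.55) and Sema3c in ciliated cells (0.22).

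Sema6d in aerocytes stood at 1.73, 1.92, 1.90 and 1.30 in CS mice 1 to 4 and at 0.541, 0.980, 1.01 and 0.785 in RA mice 1 to 4. The groups did not overlap, and CS was higher in 4 of 4 lanes. The means were 1.71 ± 0.286 and 0.829 ± 0.216, a log2 difference of 0.57 (SE 0.098, limma adjusted p = 0.0264, exact two-sided permutation p = 0.0286, the smallest that 4 against 4 can give), where 1.96% of the 6876 genes tested in aerocytes were called. With the adjustment over all types together it was the 1 pair still called, at limma adjusted p = 0.0357. The call was lost without CS mouse 1, 2 or 3 or RA mouse 4 (limma adjusted p = 0.0825, 0.0998, 0.0795 and 0.0674). With span corrected, the log2 difference was 0.37 and the limma adjusted p = 0.0503. The 5 gCap markers summed to 0.473 to 1.08 in aerocytes of CS and 0.627 to 3.41 of RA mice and overlapped. The 5 aerocyte markers summed to 86.3 to 89.996 in CS and 91.6 to 107 in RA mice, with no overlap, and their part was not tested.

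No other endothelial pair outside gCap cells passed the test. Sema6d in lymphatic endothelium stood at 1.07, 1.14, 1.58 and 0.881 in CS and 0.275, 0.632, 0.692 and 0.374 in RA mice, with no overlap. The log2 difference was 0.54 (SE 0.13, limma adjusted p = 0.157). In venous endothelium Sema6d was 4.79 ± 0.803 in CS and 2.89 ± 0.921 in RA mice, with an overlap of 1 CS and 1 RA mouse (log2 difference 0.60, SE 0.17, limma adjusted p = 0.156). In arterial endothelium it was 3.02 ± 0.451 and 2.13 ± 0.634 (log2 difference 0.38, limma adjusted p = 0.265). Sema6a in aerocytes was 15.7 ± 1.31 in CS and 11.7 ± 3.94 in RA mice (log2 difference 0.45, limma adjusted p = 0.212), in lymphatic endothelium 13.5 ± 2.35 and 10.5 ± 1.51 (0.33, limma adjusted p = 0.560), and its groups overlapped in both. Sema3g in arterial endothelium, its highest type, was 5.26 ± 0.446 and 4.53 ± 0.333 (log2 difference 0.18, limma adjusted p = 0.534). Sema7a in aerocytes, its highest type, was 4.32 ± 0.723 and 4.90 ± 0.682 (log2 difference -0.15, limma adjusted p = 0.434), and Sema5a there was 3.94 ± 0.818 and 3.79 ± 0.833 (0.05, limma adjusted p = 0.862). Sema3e in venous endothelium was 0.281 ± 0.0322 in CS and 0.447 ± 0.167 in RA mice, with overlap (log2 difference -0.17, limma unadjusted p = 0.0370, limma adjusted p = 0.303, exact two-sided permutation p = 0.0857). The means of Sema7a in venous endothelium (0.520 ± 0.148 and 0.546 ± 0.272) and of Sema3a in lymphatic endothelium (4.72 ± 2.07 and 4.75 ± 0.791) differed by less than the spread between mice.

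Sema3e, the ligand of plexin D1, rose in AT1 cells, where it is highest. It stood at 16.8, 16.2, 15.2 and 18.4 in CS mice 1 to 4 and at 8.39, 11.1, 13.1 and 12.1 in RA mice 1 to 4, with no overlap. The means were 16.7 ± 1.31 and 11.2 ± 2.03, a log2 difference of 0.55 (SE 0.13, limma adjusted p = 0.0439, exact two-sided permutation p = 0.0286), where 2.38% of the 8873 genes tested in AT1 cells were called. The call was lost without any 1 of the 4 CS mice (limma adjusted p = 0.110, 0.0947, 0.0756 and 0.120 for mice 1 to 4) or without RA mouse 2 or 4 (0.0810 and 0.0591), and with lane as a term (0.0611). With span corrected the log2 difference was 0.50 and the limma adjusted p = 0.0438. Sema3a, also highest in AT1 cells, stood at 8.23, 9.22, 7.85 and 8.02 in CS and 4.48, 6.02, 6.29 and 6.68 in RA mice, with no overlap, and did not pass (log2 difference 0.45, SE 0.12, limma adjusted p = 0.0594). The 4 AT1 markers summed to 248 to 292 in CS and 298 to 337 in RA mice. The median mitochondrial percent of AT1 cells was 1.75 to 3.26 in CS and 1.33 to 1.71 in RA mice, with no overlap. Its part in these results, and that of the markers, was not tested. There were 70 to 173 AT1 cells in a CS mouse and 50 to 153 in an RA mouse.

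In the airway epithelium Sema3e was also higher in every CS mouse than in every RA mouse in ciliated (7.38 ± 0.486 and 6.36 ± 0.289), club (2.41 ± 0.264 and 1.83 ± 0.175) and goblet cells (0.573 ± 0.0271 and 0.321 ± 0.181), and none of them passed (limma adjusted p = 0.154, 0.324 and 0.257). Sema3c rose in ciliated cells from a low level: 0.460, 0.738, 0.502 and 0.664 in CS and 0.354, 0.381, 0.369 and 0.340 in RA mice. The groups did not overlap, with CS mouse 1 nearest to RA. The log2 difference was 0.22 (SE 0.051, limma adjusted p = 0.0371, exact two-sided permutation p = 0.0286), where 4.63% of 11077 genes were called. The call was lost without CS mouse 2 or 4 (limma adjusted p = 0.0556 and 0.105), without RA mouse 1, 2, 3 or 4 (0.0669, 0.0689, 0.0600 and 0.0884), with lane as a term (0.0653) and with span corrected (0.0900). The 5 gCap markers summed to 0.0459 to 0.0870 in ciliated cells of CS and 0.0203 to 0.165 of RA mice, near 0 in both. The 5 arterial markers summed to 0.0663 to 0.0872 and 0.0308 to 0.0660, and the 5 aerocyte markers to 1.66 to 1.91 and 2.20 to 2.702, both without overlap, and their part was not tested.

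Among macrophages and stroma, Sema3c in alveolar macrophages stood at 2.87, 1.26, 0.566 and 0.389 in CS and 0.150, 0.428, 0.0583 and 0.0394 in RA mice. RA mouse 2 lay above CS mouse 4, and the pair did not pass (log2 difference 0.85, SE 0.22, limma adjusted p = 0.0957), but did with lane as a term (limma adjusted p = 0.0261). Without CS mouse 1 the log2 difference was 0.55 (limma adjusted p = 0.178). The 5 gCap markers summed to 0.922 to 1.75 in alveolar macrophages of CS and 0.178 to 0.689 of RA mice, with no overlap, and gCap cells are the highest type for Sema3c. The part of gCap transcripts in this difference was not tested. In mesothelium, where CS mouse 1 had too few cells, Sema6a stood at 3.63, 2.84 and 3.17 in CS mice 2 to 4 and 1.64, 2.14, 2.19 and 1.46 in RA mice. Sema5a there stood at 2.44, 2.83 and 1.99 in CS and 1.43, 1.47, 1.57 and 1.43 in RA mice. Neither pair overlapped, and neither passed (log2 differences 0.56, SE 0.11, and 0.46, SE 0.088, limma adjusted p = 0.0782 and 0.0739). The median mitochondrial percent of mesothelial cells was 2.39 to 2.82 in CS and 1.97 to 2.35 in RA mice, and 5 aerocyte markers summed to 2.14 to 2.40 and 3.16 to 5.62, both without overlap. Their part was not tested. Sema5a in adventitial fibroblasts was 1.08 ± 0.199 in CS and 0.646 ± 0.167 in RA mice, with overlap (log2 difference 0.34, SE 0.087, limma adjusted p = 0.0565). With span corrected, the log2 difference was 0.15 (limma adjusted p = 0.291). In alveolar fibroblasts it was 2.499 ± 0.330 and 1.72 ± 0.354 without overlap (0.37, limma adjusted p = 0.0899).

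**Figure D5:**
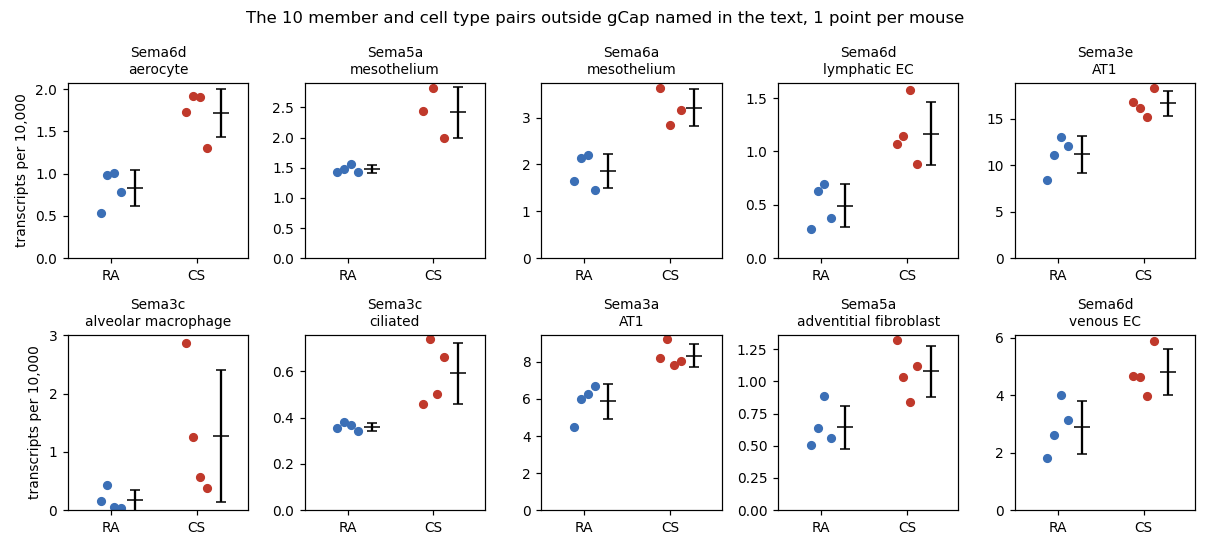
Level per mouse (points) in transcripts per 10,000 for the 10 pairs of semaphorin and cell type outside gCap cells with the smallest limma p, with the mean and SD of each group; each panel has its own axis from 0. CS lies wholly above RA in 7 panels and overlaps RA for Sema3c in alveolar macrophages, Sema5a in adventitial fibroblasts and Sema6d in venous endothelium.

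The receptors and downstream genes of the semaphorins were tested in all 22 types. Cells of the gCap type were included, as the choice of the semaphorins did not rest on the levels of these genes there. The gene lists were still chosen with earlier results of these data known. The gCap tests also use the same cells and mice that chose the semaphorins, so the counts below are not independent of that choice. The background was 1.23% of 172262 tests. Of 170 tests of 15 receptors, of 16 listed, 5 passed, all higher in CS. Of 79 tests of 9 other semaphorins, of 12 listed, 1 passed, and of 237 tests of 17 signalling genes, of 19 listed, 5 passed, 4 higher and 1 lower in CS. The median log2 differences over the 22 types were 0.09, 0.04 and 0.02. Beside them, all tests had a median of 0.01 outside gCap cells and 0.01 in gCap cells. Tests outside gCap cells of genes that span more than 100 kb had a median of 0.07.

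In gCap cells 3 of the 9 receptors tested rose, where 10.3% of 6556 genes were called in either direction. Nrp1, a neuropilin that class 3 semaphorins bind, stood at 7.17, 6.42, 6.99 and 7.19 in CS and 4.07, 6.04, 4.76 and 5.34 in RA mice (log2 difference 0.40, SE 0.11, limma adjusted p = 0.0493). Plxna4, a plexin that Sema6a binds, stood at 2.88, 3.39, 2.62 and 2.76 in CS and 2.01, 2.44, 2.004 and 1.996 in RA mice (0.33, SE 0.081, limma adjusted p = 0.0374). Kdr, the VEGF receptor 2, which can join plexin A1 as a receptor of Sema6d, stood at 3.03, 3.11, 2.74 and 2.95 in CS and 1.93, 2.33, 2.25 and 2.27 in RA mice (0.31, SE 0.068, limma adjusted p = 0.0301). In all 3 the groups did not overlap. They also did not overlap for Itga1 (14.7 ± 1.84 and 9.70 ± 2.35, limma adjusted p = 0.0616), Plxna1 (1.41 ± 0.0547 and 1.03 ± 0.252, limma adjusted p = 0.0724) and Plxnd1 (0.926 ± 0.0580 and 0.619 ± 0.211, limma adjusted p = 0.0676), the receptor of Sema3e. Of the 9 receptors, 6 thus had CS values wholly above RA values, against 13.6% of the 6556 genes. A higher mean log2 level in CS was seen in 7 of the 9, against 52.7% of the 6556. The receptors named here were picked by the lack of overlap, and they span 40.2 to 444 kb. Of gCap genes that span 30 to 100, 100 to 200 and over 200 kb, 70.1%, 83.0% and 86.1% were higher in CS. The shares called and without overlap were not counted for long genes alone. The call of Nrp1 was lost without any 1 of the 8 mice (limma adjusted p from 0.0529 to 0.126), that of Plxna4 without any but RA mouse 1 (from 0.0554 to 0.0937) and that of Kdr without CS mouse 1, 3 or 4 or RA mouse 2 (0.0873, 0.0679, 0.0903 and 0.0679). All 3 were lost with lane as a term (0.0832, 0.0792 and 0.0751). With span corrected, the log2 differences were 0.27, 0.13 and 0.27 (limma adjusted p = 0.125, 0.387 and 0.0541).

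By level, aerocytes were the highest type for Nrp1 (28.7 ± 4.74, against 6.00 ± 1.17 in gCap cells), Kdr (25.4 ± 5.28), Plxna1 (2.51 ± 0.483) and Plxna2 (5.14 ± 0.690), arterial endothelium for Plxna4 (6.92 ± 1.63) and Plxnd1 (2.65 ± 0.907), lymphatic endothelium for Nrp2 (13.5 ± 3.36), and non-classical monocytes for Plxnc1 (1.41 ± 0.380, n = 7), the Sema7a receptor, among these 22 types. For Plxna4 the gap to aerocytes (5.45 ± 0.885) did not exceed the larger SD, so arterial endothelium was not distinct from them. Beyond gCap cells, Met, the hepatocyte growth factor receptor, rose in ciliated cells (0.336 ± 0.0372 and 0.215 ± 0.0234, limma adjusted p = 0.0189), and Nrp2 rose in adventitial fibroblasts (1.197 ± 0.0721 and 0.779 ± 0.154, limma adjusted p = 0.0438). Sema3b was called higher in ciliated cells (0.207 ± 0.0162 and 0.144 ± 0.0216, limma adjusted p = 0.0450), a low level beside 2.28 ± 0.450 in AT1 cells. It was the 1 call in 79 tests of other semaphorins, near the background of 1.23%. In ciliated cells 4.63% of 11077 genes were called.

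Of the signalling genes, Mical3, which oxidises actin downstream of plexins, rose in adventitial fibroblasts (2.24 ± 0.353 and 1.19 ± 0.2499, limma adjusted p = 0.0236) and alveolar fibroblasts (4.06 ± 0.246 and 2.48 ± 0.558, limma adjusted p = 0.0433). Its relative Mical2 rose in AT1 cells (3.35 ± 0.224 and 2.19 ± 0.544, limma adjusted p = 0.0440). Farp1, an exchange factor that binds class A plexins, rose in adventitial fibroblasts (1.77 ± 0.197 and 1.10 ± 0.174, limma adjusted p = 0.0364). Gipc1, an adaptor that binds neuropilin 1, fell in ciliated cells (0.558 ± 0.0209 and 0.739 ± 0.0862, limma adjusted p = 0.0423). All 11 pathway calls were lost with lane as a term, and 8 of the 11 were lost in at least 7 of the 8 fits that left out 1 mouse. Met was lost without CS mouse 1 or 4 or RA mouse 4 (limma adjusted p = 0.0593, 0.0639 and 0.0559), and Mical3 in adventitial fibroblasts without CS mouse 2 or 4 or RA mouse 1 or 4 (0.0539, 0.0528, 0.0644 and 0.0698). Of the genes called higher in CS, Plxna4 spans 444 kb, Farp1 249, Mical3 199, Mical2 187, Nrp1 145, Nrp2 115, Met 110, Kdr 45.6 and Sema3b 11.6 kb, and Gipc1, called lower, spans 12.02 kb. With span corrected, the log2 difference of Mical3 went from 0.57 to 0.44 in adventitial fibroblasts (limma adjusted p = 0.0585) and from 0.56 to 0.45 in alveolar fibroblasts (limma adjusted p = 0.0903). That of Farp1 went from 0.40 to 0.25 (limma adjusted p = 0.143), that of Nrp2 from 0.31 to 0.22 (0.129) and that of Met from 0.14 to 0.099 (0.0534). These 5 calls were lost with their direction kept, and the part of span in them was not tested further. The calls of Mical2 (0.46 and 0.42, limma adjusted p = 0.0471), Sema3b (0.08 and 0.09, 0.0258) and Gipc1 (-0.16 and -0.15, 0.0368) were kept. In gCap cells 0 of the 11 signalling genes tested passed limma's test, with 4 at an unadjusted p under 0.05. That was near the share of 35.3% among all 6556 genes tested in gCap cells.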

How the data were processed

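Single-cell RNA sequencing of dissociated right lungs was measured in 4 CS and 4 RA mice with a droplet 3' kit. The authors aligned reads with STARsolo (STAR 2.7.3a) to GRCm38.p6 with the eGFP and tdTomato sequences added, summed spliced and unspliced UMIs, removed ambient RNA with SoupX and clustered and named the cells with Seurat. The deposited values are estimated counts per gene and cell that are rarely whole (1.28% of values within 1e-06), so no count model was used. The deposited cell table holds, per the file headers, the mitochondrial percent, the cluster and the cell type.

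Counts were scaled to 10000 per cell and averaged per mouse and type (mice with at least 20 cells, at least 3 such mice a group). limma 3.58.1 (R 4.3.3, trend) was fitted per type to log2(mean + 1) for genes that 10% or more of the cells held in CS or in RA mice, and p-values were adjusted by Benjamini-Hochberg over the type's genes. Fold changes on this scale understate the change of low genes. Single values were tested by an exact two-sided permutation over mice. The script was tested on simulated data. The 8 genes and the gene lists were chosen with earlier results of these data known. Named pairs were all those called outside gCap cells, then those with the smallest limma p up to 10. For each pathway list they were up to 3 higher and 3 lower calls by size, with the remaining calls added after their values were seen, and in gCap cells receptors whose groups did not overlap. Other pairs were named after their values were seen. Replicate numbers follow the order of the libraries and pair no mice, while lanes hold 1 mouse of each group. Alternatives were pseudocounts of 0.1 and 0.5, filters of 25% or none, lane as a term, summed counts, quantile scaling, at least 50 cells, each mouse left out and adjustment over all types. A correction for gene span, values within clusters and, for Sema5a and Sema7a in gCap cells, each mouse left out were added after seeing the data. Multiplets were left out as the authors labelled them, and no doublet caller was run.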

Additional observations from a re-analysis of the deposited data

Results flagged for a closer look

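Sema5a in gCap cells was 1.87 transcripts per 10,000 in RA mouse 1, against 0.0769 to 0.218 in the other 3 RA mice, a gap of 0.921 of the group's range, where 0.829 is the limit for 4 samples. It was 1 of 34 groups of 4 mice looked at, and chance alone gives about 1 in 20. The same mouse had 2075 gCap cells, the most of the 8, with a median of 3024 UMIs, the lowest. Markers of pericytes and smooth muscle summed to 0.633 in its gCap cells and to 0.155 to 0.283 in those of the other 7 mice. Their part in the Sema5a value was not tested.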

How the results depend on the processing

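The log2 difference of Sema6d in gCap cells kept its direction under all 18 alternatives (0.60 to 1.01), as did that of Sema6a (0.18 to 0.52), and both moved by less than the spread between mice. This gCap contrast chose the genes, so the kept direction is a description, not a test. Against 3 calls outside gCap cells, there were 7 with a 25% filter, 1 with the span correction, 1 with adjustment over all types together and 0 without a filter, which tests more genes, and 0 to 3 with 1 mouse left out. Against 11 pathway calls, there were 5 with the span correction, 3 of them among the 11, 1 with adjustment over all types together, which was among them, 0 with lane as a term and 0 without a filter. There were 16 with summed counts, 10 of them among the 11, and 14 with a 25% filter, all 11 included. With 1 mouse left out there were 0 to 7, of which 0 to 5 were among the 11. The other causes were not tested. None of the 10 named pairs outside gCap cells reversed under any alternative run for it. These pairs were picked by their small limma p in the same mice, so their kept direction is also a description, not a test. With 4 mice a group, an exact test cannot go below 0.0286. Of Sema3c in alveolar macrophages and Sema6d in lymphatic endothelium, 14 and 16 of the 17 alternatives gave a value, since the pair missed a filter on genes or cells in the others. Replicate numbers pair no mice, but each lane held 1 CS and 1 RA mouse, so the fit with lane as a term is the paired analysis, and it called 2 pairs outside gCap cells, Sema6d in aerocytes and Sema3c in alveolar macrophages. The macrophage pair passed the filter of 10% of cells through the CS group only. A pseudocount of 0.1 gives low levels more weight and moved 5 of the 10 named pairs by over 1.5 times: the log2 difference became 0.98 for Sema6d in aerocytes, 1.13 for Sema6d in lymphatic endothelium, 0.56 for Sema3c in ciliated cells, 2.21 for Sema3c in alveolar macrophages and 0.67 for Sema5a in adventitial fibroblasts.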
